A study of Mus musculus with 10 samples.

Results

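Glycolysis and lactate export in embryonic skin were followed here through 10 genes chosen by name for their place in the pathway. They are Slc2a1, Hk2, Pfkp, Aldoa, Pgk1, Eno1, Pkm, Ldha, Pdk1 and Slc16a3, and all 10 were found by symbol among the 34235 gene symbols of the series, of which 25943 are listed at every stage. Glycolysis splits glucose into pyruvate in the cytosol and yields ATP without oxygen. When pyruvate does not enter the mitochondria it is reduced to lactate, which the cell must export together with a proton, and this branch is known to carry more flux when the respiratory chain is impaired or oxygen is low. In the epidermis, basal keratinocytes divide on the basement membrane, suprabasal keratinocytes above them differentiate, and dermal fibroblasts lie below.

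Single cells of whole back skin were profiled by 3′ sequencing in 10 libraries. At E15.5 there were 2 Control and 2 MOFfl/fl/K14Cre (MOF cKO) embryos, at E16.5 again 2 and 2, and at E17.5 1 Control and 1 QPCfl/fl/K14Cre (QPC cKO) embryo. Krt14-Cre acts in the skin epithelium, and dermal fibroblasts are not its target. Kat8 encodes MOF, the acetyltransferase of histone H4 lysine 16, and Uqcrq encodes QPC, a subunit of complex III of the respiratory chain. The alleles of the Control embryos are not named in the labels, and the study's methods describe littermate controls. The study describes MOF cKO 6 of E15.5 as a mosaic and MOF cKO 5 as uniform in its loss of H4K16ac. Libraries held 13609345 to 203392303 unique molecular identifiers (UMIs), and 716 to 10653 cells passed the filters of more than 1000 and fewer than 6000 genes and under 10% mitochondrial UMIs. Per the labels the 3′ kit was v3.1 at E15.5, v2 at E16.5 and v3 at E17.5, and the E16.5 libraries list fewer genes, so that stage and library chemistry cannot be told apart in a level set across stages.

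One of the 2 listed promoters of Ldha and that of Slc16a3, the genes of the lactate branch, hold the core letters of the hypoxia response element, ACGTG, and are printed beside one of Eno1, which holds none. ACGTG was searched on both strands, where it reads CACGT on the other, overlapping matches on opposite strands were counted separately, and capitals mark the matches. The windows run from 250 bases before to 50 bases after a RefSeq start site on GRCm38.p6. Ldha, at chr7:46845554-46845853 on the + strand, holds 5 matches, 4 of them in 2 palindromes, while the other Ldha promoter listed, at chr7:46846832-46847131, holds 0. Slc16a3, at chr11:120948817-120949116 on the + strand, holds 2, at 27 and 14 bases before the start. Eno1, at chr4:150236947-150237246 on the + strand, holds 0. Of GCGTG, also counted below, the printed windows of Ldha, Slc16a3 and Eno1 hold 2, 0 and 2.
Ldha: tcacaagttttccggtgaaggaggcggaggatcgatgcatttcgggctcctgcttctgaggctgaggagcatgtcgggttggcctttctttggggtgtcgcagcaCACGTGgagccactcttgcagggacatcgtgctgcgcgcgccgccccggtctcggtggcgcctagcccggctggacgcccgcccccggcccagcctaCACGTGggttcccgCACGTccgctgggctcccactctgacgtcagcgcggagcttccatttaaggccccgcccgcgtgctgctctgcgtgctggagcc
Slc16a3: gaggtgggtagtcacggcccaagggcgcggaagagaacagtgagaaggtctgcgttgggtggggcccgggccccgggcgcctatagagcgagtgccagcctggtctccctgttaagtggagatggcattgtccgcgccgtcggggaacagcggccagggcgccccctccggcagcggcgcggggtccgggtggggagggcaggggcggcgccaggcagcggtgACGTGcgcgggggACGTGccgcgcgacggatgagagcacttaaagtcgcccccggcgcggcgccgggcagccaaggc
Eno1: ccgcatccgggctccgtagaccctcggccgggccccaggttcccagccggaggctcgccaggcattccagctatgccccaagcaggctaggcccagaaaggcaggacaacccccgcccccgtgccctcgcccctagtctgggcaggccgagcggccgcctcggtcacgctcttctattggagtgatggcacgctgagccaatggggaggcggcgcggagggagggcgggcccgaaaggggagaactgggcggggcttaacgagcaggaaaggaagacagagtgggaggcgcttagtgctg
Of the 10 genes, 7 had at least 1 promoter with ACGTG, against 21.8% of 27025 genes, and 5 had one with GCGTG, against 35.2%. A match is a string of letters and not a measured binding site.

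Cells were sorted in silico by keratin and collagen UMIs. Basal cells had at least 10 UMIs of Krt5 plus Krt14 and under 10 of Krt1 plus Krt10, suprabasal cells at least 20 of Krt1 plus Krt10, and fibroblasts at least 30 of Col1a1 plus Col3a1 with under 10 of Krt5 plus Krt14. These gates held 901 to 2584 basal cells per E15.5 library but 239 and 464 in the E16.5 controls and 21 and 22 in the E16.5 MOF cKO. The suprabasal gate held 31 and 66 cells in the E16.5 controls and 9 and 13 in the MOF cKO. The library with 9 cells was left out of the tests, other than an alternative that kept it, so the suprabasal tests had 1 MOF cKO embryo at E16.5.

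Markers of other cell types also differed between libraries in some gates. Cells that also carried 30 or more collagen UMIs were 45.2% of the basal gate in the E17.5 control and 9.19% in QPC cKO, 31.4% and 4.96% in the E16.5 controls and 0% in both E16.5 MOF cKO libraries. In the E16.5 suprabasal gate they were 3 of the 13 cells of MOF cKO 2 (23.1%), 0% in MOF cKO 1 and 6.45% and 4.55% in controls. No doublet caller was run, and several results below are given with and without these cells. In the E16.5 MOF cKO basal gate the hair follicle markers summed to 3797 and 2409 CPM (UMIs scaled to 1000000 UMIs of the library and gate), against 1082 and 1213 in controls, with Lhx2 and Shh at 0 among the 6 markers. Because Lhx2 and Shh were at 0, the sum does not by itself show more hair follicle cells in this gate. The immune markers there summed to 147 and 938, against 201 and 19.9. Barcodes shared between 2 libraries were at most 0.354% of the smaller one. The part of any of these in the results was not tested.

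In control skin the summed UMI share of the 10 genes was higher in basal cells than in fibroblasts and highest in suprabasal cells. Single genes did not all follow this order, as given below. The 10 genes together made up 0.170%, 0.193%, 0.214%, 0.224% and 0.239% of all UMIs in basal cells of the 5 controls. In suprabasal cells the share was 0.256%, 0.346%, 0.387%, 0.397% and 0.457%, and in fibroblasts it lay between 0.116% and 0.159%. The 3 gates did not overlap over the 5 controls. Without collagen-positive cells the basal share of the E17.5 control was 0.334%, above the lowest suprabasal share, 0.259%, but each embryo kept the order of its own 3 gates. Of the 10 genes, 9 rose from basal to suprabasal cells and 0 fell (edgeR quasi-likelihood test, adjusted p under 0.05, 5 controls as blocks), where 18.2% of 12344 genes rose and 24.2% fell. From basal cells to fibroblasts 7 fell, where 26.8% of all genes did, and 1 rose, where 31.7% did. From fibroblasts to suprabasal cells 8 rose, where 31.0% did, and 0 fell, where 37.2% did. Without collagen-positive cells the first 2 comparisons gave the same counts, 9 and 0, and 1 and 7. The share of all genes called in those 2 fits is not given here, so these counts show only that the number of members called did not move.

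**Figure D1:**
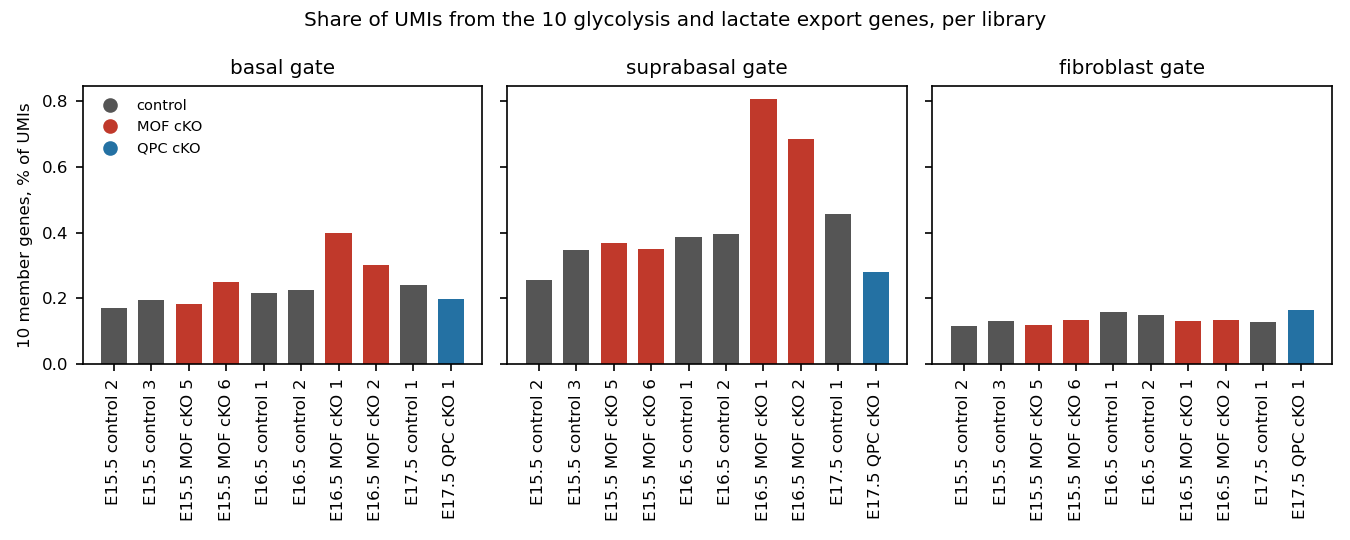
Share of all UMIs (percent, y axis) taken by the 10 genes together in each library, by cell gate and stage. The E16.5 MOF cKO basal shares are 0.397% and 0.302%, above the controls at 0.214% and 0.224%. The E17.5 QPC cKO suprabasal share, 0.281%, lies below its control at 0.457%.

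Slc2a1 (ENSMUSG00000028645, chr4:119108711-119137983, GRCm38 as for all genes here) encodes GLUT1, the glucose transporter through which keratinocytes take up glucose, and was the member most restricted to the epidermis. Its level in CPM was 177, 194, 110, 163 and 240 in the basal cells of the E15.5, E16.5 and E17.5 controls in turn, and 11.9, 14.5, 14.0, 11.9 and 21.6 in their fibroblasts. Every basal value lay above every fibroblast value, and the log2 difference of fibroblasts from basal cells was -3.61 ± 0.19 (SE, edgeR adjusted p = 1.8e-07). Suprabasal cells had 197, 225, 211, 178 and 520, above the basal cells of the same embryo in all 5 (log2 difference 0.60 ± 0.18, edgeR adjusted p = 0.018). Without the E17.5 control this call was lost (adjusted p = 0.055). Leaving out collagen-positive cells took the E17.5 control's basal value to 421 and its suprabasal value to 526, and the log2 difference over the 5 controls to 0.35 (edgeR adjusted p = 0.012).

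Hexokinase 2, which traps glucose as glucose 6-phosphate, followed the same order. Hk2 (ENSMUSG00000000628, chr6:82725025-82774454) stood at 32.4, 33.0, 20.6, 18.4 and 25.8 CPM in basal control cells and at 40.0, 66.7, 46.2, 49.6 and 68.4 in suprabasal cells. The log2 difference was 1.15 ± 0.20 (edgeR adjusted p = 0.00086), and fibroblasts lay 1.18 lower than basal cells on the log2 scale. Pfkp (ENSMUSG00000021196, chr13:6579768-6648777) encodes the platelet isoform of phosphofructokinase, the committing step. It was low in control keratinocytes, at 2.51 to 17 in basal cells, and its rise in suprabasal cells (log2 1.20 ± 0.35, edgeR adjusted p = 0.017) was absent in 1 of the 5 controls. Without E15.5 control 3 the adjusted p was 0.10, and without E16.5 control 2 it was 0.069. Pfkp in fibroblasts lay below basal cells in 2 of the 5 controls, with a median ratio of 1.93.

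Aldolase and the enzymes of the lower pathway rose in suprabasal cells of all 5 controls. Aldoa (ENSMUSG00000030695, chr7:126795234-126800751), the aldolase of the pathway, went from 293, 339, 434, 397 and 420 CPM in basal cells to 494, 671, 945, 898 and 859 (log2 difference 1.13 ± 0.09, edgeR adjusted p = 7.2e-06). Pgk1 (ENSMUSG00000062070, chrX:106187100-106203699), an ATP-forming kinase, differed by 0.97 ± 0.08, Eno1 (ENSMUSG00000063524, chr4:150236721-150248879), the enolase, by 0.97 ± 0.11, and Pkm (ENSMUSG00000032294, chr9:59656368-59679375), the pyruvate kinase, by 0.68 ± 0.10. Fibroblasts were lower than basal cells in all 5 controls for each of these 4 genes, at 0.443 to 0.75 of the basal level. Without collagen-positive cells the E17.5 control's basal values were 564 for Aldoa, 390 for Pgk1, 338 for Eno1 and 782 for Pkm, in place of 420, 277, 233 and 528, and the log2 differences of suprabasal cells were 1.04, 0.87, 0.86 and 0.54. Aldoa is listed under a second gene ID in the E15.5 and E17.5 libraries, which held 1 to 4 UMIs per library and was added. Eno1 has a near-identical copy, Eno1b, so that reads may be split between them.

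Lactate dehydrogenase A, which turns pyruvate into lactate, separated suprabasal cells alone. Ldha (ENSMUSG00000063229, chr7:46841475-46855627) measured 400, 443, 590, 573 and 600 CPM in basal control cells, 443, 476, 607, 618 and 457 in fibroblasts and 695, 951, 1037, 1152 and 1109 in suprabasal cells. Suprabasal cells were 1.74 to 2.15 times the basal level in each embryo (log2 difference 1.04 ± 0.08, edgeR adjusted p = 3.8e-06), and the fibroblasts' difference from basal cells was 0.00 ± 0.08. Pdk1 (ENSMUSG00000006494, chr2:71873224-71903858), the kinase that closes the pyruvate dehydrogenase gate, was higher in suprabasal cells (log2 0.88 ± 0.16, edgeR adjusted p = 0.0012) and lower in fibroblasts (log2 -1.29 ± 0.15).

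Slc16a3 (ENSMUSG00000025161, chr11:120948480-120960868), which encodes the lactate exporter MCT4, was the 1 member called higher in fibroblasts than in basal cells. It stood at 4.24, 4.98, 10.7, 6.78 and 23.6 CPM in basal control cells and at 13.4, 17.1, 19.5, 26.8 and 15.9 in fibroblasts. Fibroblasts were higher by 1.16 ± 0.30 on the log2 scale (edgeR adjusted p = 0.0060), in 4 of 5 controls, and without E16.5 control 2 the adjusted p was 0.050. The exception was E17.5, where fibroblasts had 0.674 of the basal level. The difference of suprabasal from basal cells, 0.72 ± 0.34, did not pass the test (edgeR adjusted p = 0.11).

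**Figure D2:**
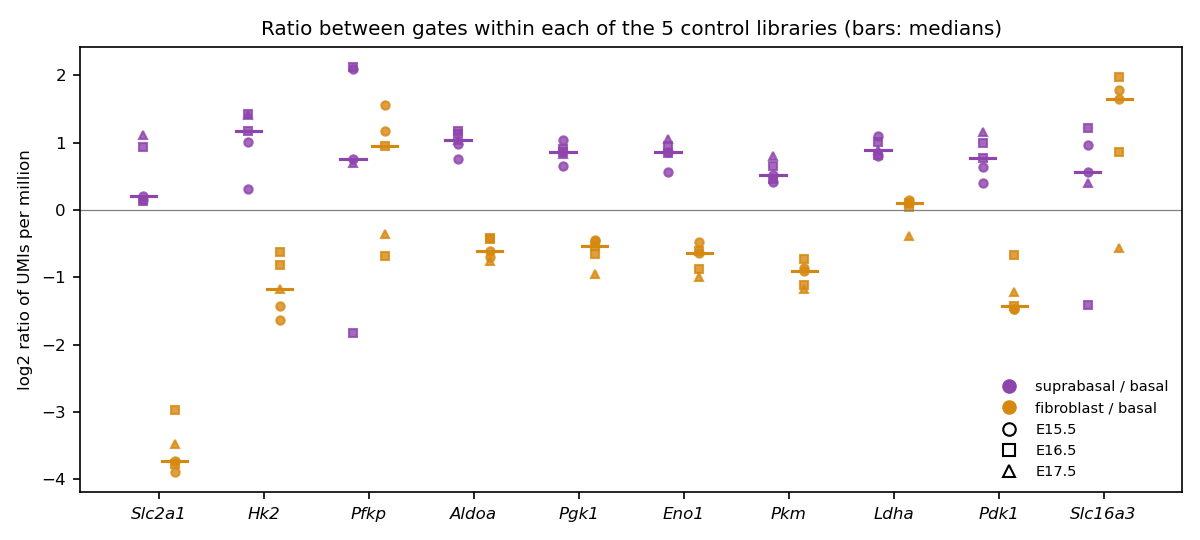
Log2 ratio of CPM between cell gates in the 5 control libraries for each of the 10 genes. By the edgeR fit over the 5 controls, suprabasal over basal differences run from 0.60 to 1.20. In fibroblasts over basal cells Slc2a1 is lowest at -3.61, while Slc16a3 is at 1.16.

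Every list of neighbouring pathway genes held both rising and falling genes from basal to suprabasal control cells. Among all genes 18.2% rose and 24.2% fell. Of 17 other glycolysis and lactate genes 8 rose and 3 fell, with Aldoc at 3.24 and Pfkl at 1.44 on the log2 scale and Eno2 at -1.67. Of 22 tested genes of the HIF pathway and other hypoxia genes 9 rose and 2 fell, among them Higd1a at 1.75, Ankrd37 at 1.31 and P4ha1, a collagen prolyl hydroxylase, at -1.81. Of 10 genes of the pentose phosphate and serine branches 7 rose and 1 fell, led by G6pdx at 1.35, Psph at 1.27 and Pgd at 1.09. Of 11 genes of pyruvate entry to the mitochondria 1 rose (Cs, 0.39) and 2 fell (Pdk2, -0.84, and Pdha1, -0.38). From basal cells to fibroblasts these lists gave 6 higher and 9 lower, 5 and 10, 0 and 5, and 3 and 3 in the same order, where 31.7% of all genes were higher and 26.8% lower, with Ldhb at -2.55, Car12 at -4.94, Psat1 at -2.22 and Cs at -0.89.

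The MOF cKO comparison asks what the epithelial loss of MOF did to these genes. Kat8 itself measured 13.0 and 13.7 CPM in E15.5 control basal cells and 13.4 and 10.3 in MOF cKO, and 16.4 and 14.9 against 8.31 and 4.51 at E16.5. The E16.5 MOF cKO values rest on 3 and 2 UMIs, and neither difference passed the test (edgeR adjusted p = 0.98 and 0.42). In fibroblasts Kat8 was lower in MOF cKO at both stages, at 9.18 and 9.62 against 6.83 and 5.98 and at 9.60 and 8.23 against 2.81 and 5.39 (edgeR adjusted p = 0.19 and 0.13). Counts at the 3′ end also include transcripts that lack a deleted exon, so Kat8 UMIs do not check the deletion.

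At E15.5 Aldoa, Eno1 and Pkm had slightly higher values in MOF cKO basal cells, within what the test could not separate from replicate spread. Aldoa measured 424 and 474 CPM against 293 and 339 in controls, Eno1 138 and 158 against 84.5 and 124, and Pkm 476 and 606 against 425 and 470. For these 3 genes both MOF cKO libraries lay above both controls, as did 16.7% of genes of at least 2 CPM. Hk2 lay below, at 21.6 and 26.9 against 32.4 and 33.0, as did 34.0% of genes. The other 6 genes overlapped between groups, and Slc2a1 differed more between the MOF cKO embryos, 84.9 and 201, than between groups. Fitted log2 changes were 0.66 ± 0.14 for Aldoa, 0.64 ± 0.22 for Eno1 and 0.41 ± 0.12 for Pkm (edgeR adjusted p = 0.50 for each).

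None of the 10 genes was called in any gate at E15.5, where edgeR called 0.0% of 14361 genes in basal cells, 0.0% of 10819 in suprabasal cells and 0.0% of 16264 in fibroblasts. At an unadjusted p under 0.05 there were 4 members in basal cells, all higher, where 5.4% of all genes were higher, 0 in suprabasal cells (7.97% of all genes in either direction) and 1 in fibroblasts, higher, where 7.48% were higher. DESeq2 called 0 in each gate, and 0.738%, 0.453% and 3.05% of all genes. The median member had a change of 0.39 in basal and 0.32 in suprabasal cells and of -0.01 in fibroblasts on the log2 scale, against -0.01, -0.01 and 0.00 for all genes. In suprabasal cells Aldoa, Eno1, Pkm and Ldha lay above both controls (16.9% of all genes did) and 0 members below (21.6%). Without collagen-positive cells Ldha overlapped, at 945 and 1005 CPM against 693 and 967. In fibroblasts Aldoa and Pdk1 lay above (27.1%) and Hk2 and Pfkp below (21.8%). The 2 MOF cKO embryos differed from each other, and MOF cKO 6 is the one the study describes as a mosaic. In basal cells Pdk1 measured 16.8 CPM in MOF cKO 5 and 43.6 in MOF cKO 6, against 32.0 and 35.7 in controls. The part of the mosaic in this difference was not tested. Without MOF cKO 6 the test called 7 members in basal cells, 4 higher and 3 lower, among 7058 of 15210 genes, and without MOF cKO 5 it called 3, all higher, among 744 of 15036 genes. In both fits a lone MOF cKO embryo was assumed to vary as the controls did.

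**Figure D3:**
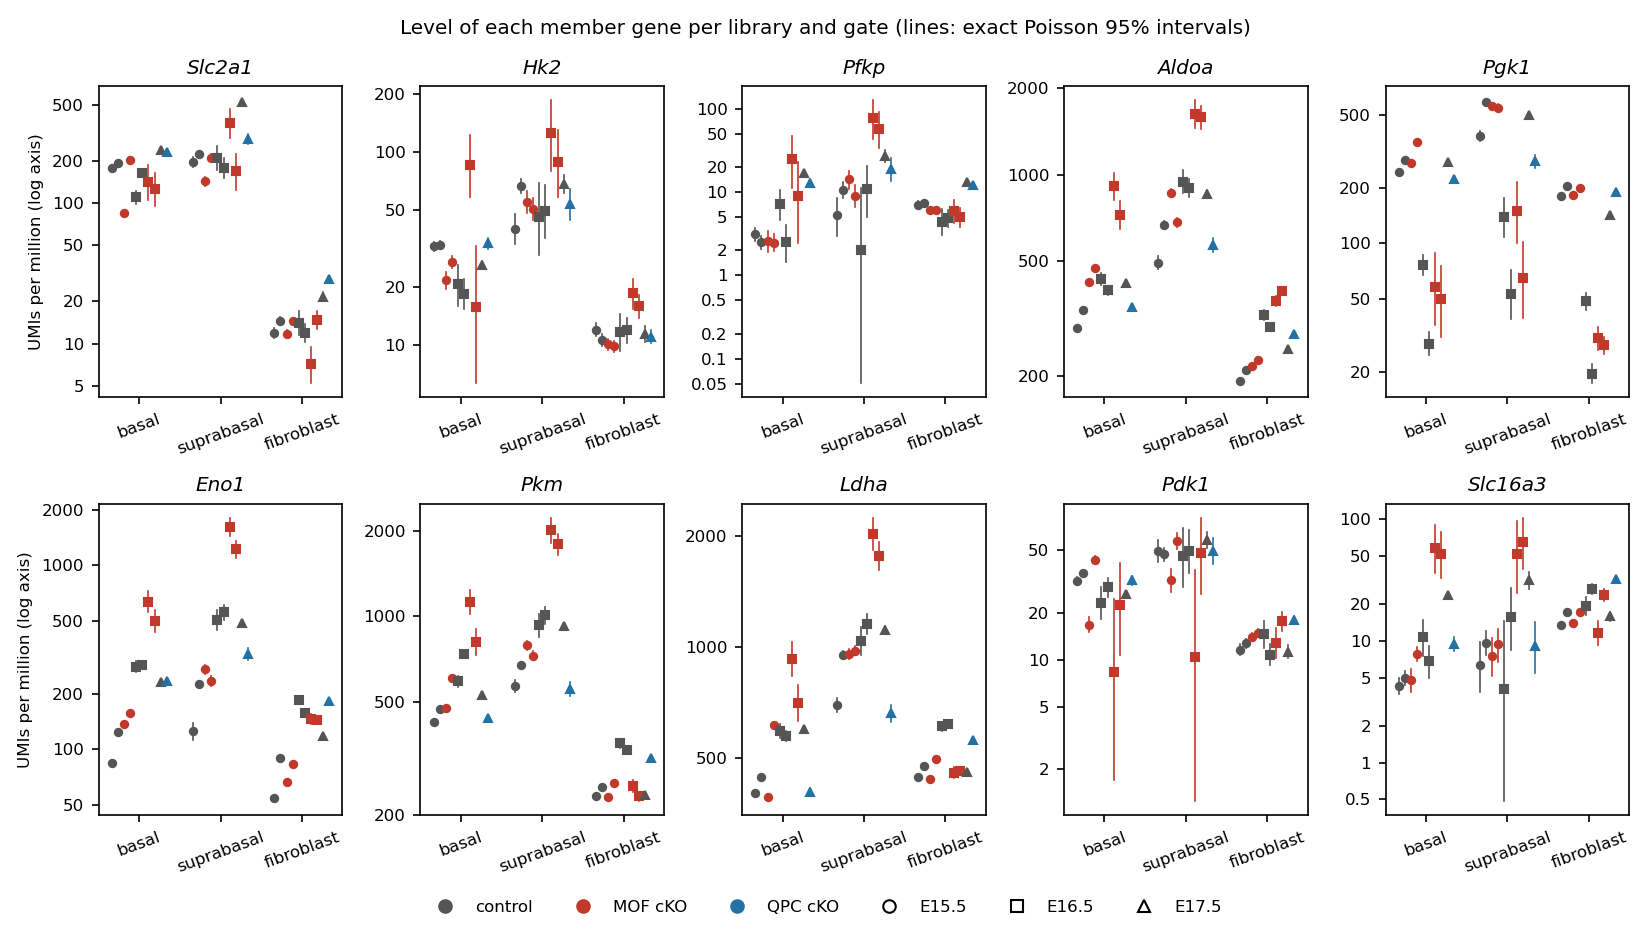
CPM (log y axis) of each gene in every library (points), by cell gate and stage, with control, MOF cKO and QPC cKO in separate colours. Slc16a3 in E16.5 basal cells stands at 58.2 and 51.9 in MOF cKO and at 10.7 and 6.78 in controls, and Slc2a1 in fibroblasts stays at 7.10 to 28.7 in all 10 libraries.

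At E16.5 the summed levels of most members were higher in the few remaining MOF cKO keratinocytes. Slc16a3 stood at 58.2 and 51.9 CPM in MOF cKO basal cells, from 21 and 23 UMIs, and at 10.7 and 6.78 in controls, from 36 and 46. The MOF cKO embryos lay well above the controls, with a log2 change of 3.19 ± 0.37 that missed the threshold (edgeR adjusted p = 0.062). Aldoa measured 912 and 726 against 434 and 397, a log2 change of 1.5 ± 0.30 (edgeR adjusted p = 0.12). Eno1 had 635 and 498 against 282 and 287 and the same change, 1.5 ± 0.31. Fitted changes in E16.5 basal cells, here and below, use the TMM scaling of edgeR and exceed those of the CPM printed beside them. Scaling by library size alone, as in CPM, shifted the median log2 change of all genes by -0.52. Fitted changes in E16.5 suprabasal cells and fibroblasts use TMM too, and there the shift was -0.43 and -0.12.

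Pkm and Ldha, the enzymes before and at the lactate step, differed by less. Pkm measured 1122 and 812 CPM in MOF cKO basal cells against 590 and 733 (log2 change 1.05 ± 0.36, edgeR adjusted p = 0.19), and Ldha measured 928 and 704 against 590 and 573 (1.0 ± 0.31, edgeR adjusted p = 0.18). These log2 changes are on the TMM scale. The ratios of mean CPM were smaller, at 1.46 for Pkm and 1.40 for Ldha. Pfkp, at 24.9 and 9.02 against 7.15 and 2.51, rests on 9 and 4 UMIs in MOF cKO. For these 6 genes both MOF cKO values lay above both controls, as did 10.5% of 11264 genes. Hk2 was high in MOF cKO 1 alone, at 85.9 against 15.8 in MOF cKO 2 and 20.6 and 18.4 in controls. Slc2a1 and Pgk1 overlapped, and Pdk1 was below both controls at 8.31 and 22.6 against 23.2 and 29.0, where 50.0% of all genes were. Without collagen-positive cells Slc2a1 was below both controls too, at 141 and 126 against 164 and 172.

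Suprabasal cells gave a similar set of values from fewer cells. Eno1 measured 1620 and 1226 CPM in MOF cKO against 507 and 556, Aldoa 1625 and 1586 against 945 and 898, and Slc16a3 51.9 and 65.1 against 4.02 and 15.7. Without its 3 collagen-positive cells MOF cKO 2 had 20.6 CPM of Slc16a3, from 3 UMIs (interval for counting error 4.25 to 60.3), against 4.44 and 16.3, and Slc16a3 was then not among the genes tested. Pfkp stood at 77.9 and 58.2 against 2.01 and 10.9, the lowest from 1 UMI. For 7 members both MOF cKO values lay above both controls, as for 12.2% of all genes, and 0 lay below, where 46.1% did. The suprabasal markers in this gate summed to 24949 and 24544 in MOF cKO against 76464 and 73057, and the basal markers to 33042 and 25452 against 13987 and 14202, so the keratin make-up of the gate differed between the groups.

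By the test across all genes, 0 of the 10 members were called at E16.5 in basal cells (edgeR, 0.0% of 9454 genes called), in suprabasal cells (0.0986% of 6084 genes called) or in fibroblasts (4.94% of 12570 genes called). The suprabasal fit set 1 MOF cKO embryo of 13 cells against 2 controls and assumed that it varied as the controls did. At an unadjusted p under 0.05 there were 7 members in basal cells and 6 in suprabasal cells, all higher, where 9.94% and 9.16% of all genes were higher, and 3 in fibroblasts, where 25.4% of all genes passed in either direction. DESeq2 called 3 members in basal cells, Slc16a3, Aldoa and Eno1 (3.12% of all genes), and 0 in suprabasal cells (0.773%) and fibroblasts (7.56%). With the keratin gates set per 10000 UMIs edgeR called 6 in basal cells (8.73% of all genes), and without collagen-positive cells, which are 31.4% of 1 control's basal gate, it called Slc16a3 alone of the members (0.445%). Over 13 alternatives the adjusted p of Slc16a3 in basal cells ran from 5.4e-07 (DESeq2) to 0.42. The median change of a member was 1.27 in basal cells and, with its lone MOF cKO embryo, 1.25 in suprabasal cells on the log2 scale, against -0.12 and -0.10 for all genes. Scaling by library size alone, which shifted the median of all genes in basal cells by -0.52, left the members' median there at 0.76. In suprabasal cells the shift was -0.43 and the members' median was left at 0.82. With both stages in 1 fit, edgeR again called 0 members in each gate (0.0% of all genes in each), and DESeq2 called 3 in basal cells, 0 in suprabasal cells and 1 in fibroblasts (2.57%, 0.87% and 10.5% of all genes). At an unadjusted p under 0.05 this fit had 5, 5 and 2 members, beside 16.3%, 10.9% and 23.2% of all genes. Whether the change differed between the stages was tested too, and edgeR called 0 members, beside 0.0157%, 0.0% and 1.19% of all genes in the 3 gates. At an unadjusted p under 0.05 there were 4, 2 and 2 members, beside 9.96%, 12.0% and 18.6%. DESeq2 called 1 member of that difference in basal cells, 0 in suprabasal cells and 1 in fibroblasts (1.57%, 0.269% and 6.47%).

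**Figure D4:**
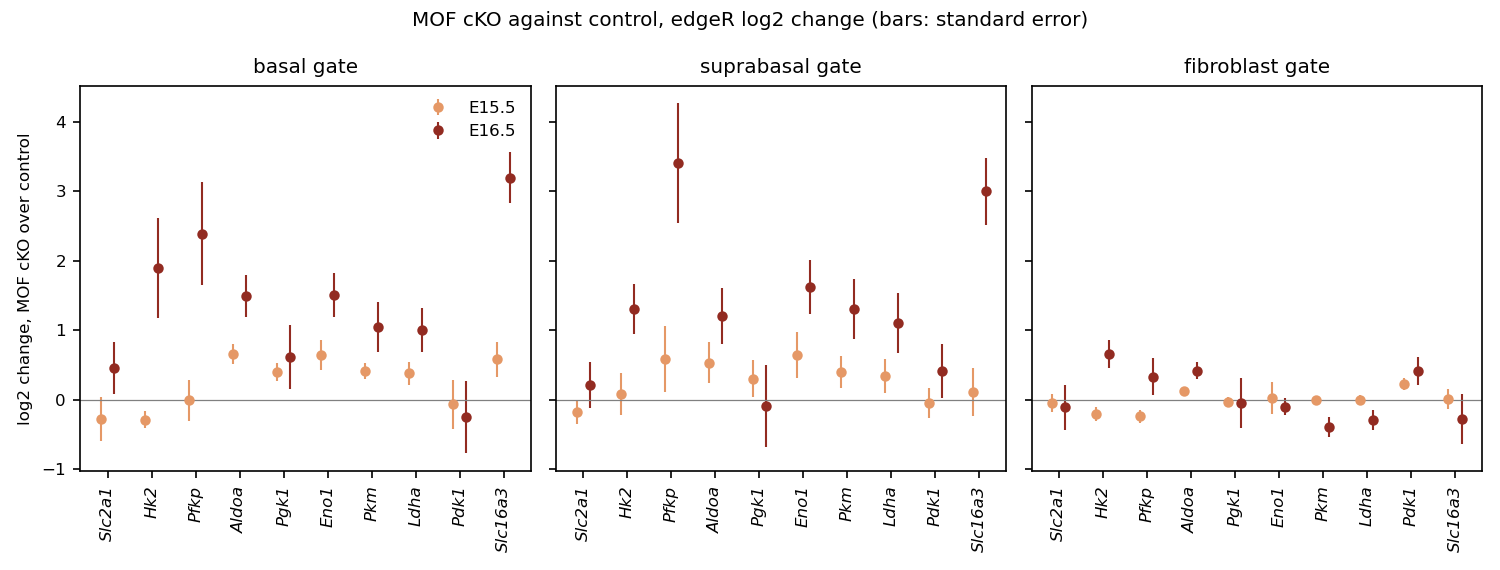
Fitted log2 change of MOF cKO over control for each gene at E15.5 and E16.5 in the 3 gates, with bars of 1 SE. At E16.5 Slc16a3 stands at 3.19 in basal and 2.99 in suprabasal cells, where the bars rest on 1 MOF cKO embryo, and at -0.28 in fibroblasts, and none of the points passed adjusted p 0.05.

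The higher E16.5 sums did not show in the median MOF cKO basal cell. In the median cell the 10 genes took 0.197% and 0.208% of UMIs in MOF cKO and 0.207% and 0.218% in controls. The upper quartile was 0.759% and 0.448% in MOF cKO but 0.280% and 0.289% in controls. Cells with under 1% mitochondrial UMIs were 6 of 21 and 5 of 22 in MOF cKO, 28.6% and 22.7%, against 2.93% and 1.72% in controls. Those cells had 0.760% and 0.473% of their UMIs in the 10 genes and gave 46.1% and 10.8% of the members' UMIs of their libraries.

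Without the cells under 1% mitochondrial UMIs, Aldoa measured 603 and 693 CPM in MOF cKO basal cells against 432 and 396, and Eno1 380 and 470 against 280 and 285. Slc16a3 stayed at 69.4 and 53.3 against 10.8 and 6.84, while Ldha came to 639 and 681 against 592 and 573. The same 6 members lay above both controls and 0 lay below. How many of all genes did so without these cells was not counted. Among the 6, Pfkp rests on 5 and 3 UMIs in MOF cKO, at 18.3 and 7.27 CPM against 7.22 and 2.53. Log2 changes were 3.27 for Slc16a3, 1.11 for Aldoa and 1.04 for Eno1 (edgeR adjusted p = 0.078, 0.14 and 0.15). In suprabasal cells such cells were 8 of 9 and 8 of 13 in MOF cKO and 35.5% and 47.0% in controls. Leaving them out kept 1 and 5 MOF cKO suprabasal cells, under the minimum of 10 for a test. In basal cells the part of cells under 1% mitochondrial UMIs in the change was not tested beyond leaving them out.

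In fibroblasts, which Krt14-Cre does not target, 3 genes were below the controls at E16.5. Pkm measured 252 and 232 CPM against 357 and 339 in controls, Ldha 455 and 459 against 607 and 618, and Eno1 146 and 145 against 185 and 157. Both MOF cKO embryos lay below both controls for these 3 genes, as did 37.4% of all genes. Aldoa, at 365 and 394 against 326 and 295, and Hk2, at 18.5 and 15.9 against 11.7 and 11.9, lay above with Pfkp, as did 17.2%. Log2 changes were -0.39 ± 0.14 for Pkm, -0.30 ± 0.14 for Ldha, 0.42 ± 0.12 for Aldoa and 0.66 ± 0.20 for Hk2 (edgeR adjusted p = 0.16, 0.26, 0.11 and 0.12). At E15.5 all 10 fibroblast values lay within 0.24 of no change on the log2 scale.

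The difference between gates in the MOF cKO effect was tested in 1 fit over both stages. In basal minus fibroblast cells 2 members were called, Eno1 at 1.07 ± 0.23 and Aldoa at 0.78 ± 0.18 (edgeR adjusted p = 0.043 and 0.048), where 0.64% of 14217 genes were called higher. Pkm at 0.91 ± 0.24, Ldha at 0.81 ± 0.21 and Slc16a3 at 1.62 ± 0.48 did not pass (edgeR adjusted p = 0.072, 0.072 and 0.098). Over 17 alternatives the adjusted p ran from 0.0022 to 0.23 for Eno1 and from 0.0043 to 0.24 for Aldoa, and each was called in 5. Both calls were lost without the cells under 1% mitochondrial UMIs (Eno1 0.83, Aldoa 0.58, edgeR adjusted p = 0.056 and 0.096), and without any 1 of the 8 libraries other than E15.5 MOF cKO 6. In suprabasal minus fibroblast cells edgeR called 0 members (0.00703% of all genes). Before adjustment 5 members had p under 0.05 (11.1%), and DESeq2 called 3 (0.992%). In suprabasal minus basal cells edgeR called 0 (0.0%), 0 members had p under 0.05 before adjustment (5.14%), and DESeq2 called 0 (0.0211%).

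Neighbouring lists were called in 1 place in the MOF cKO data. In E16.5 fibroblasts, where 4.94% of all genes were called, 2 of 10 pentose phosphate and serine genes fell, Phgdh at -1.43 and Psat1 at -1.04 on the log2 scale (edgeR adjusted p = 0.025 and 0.045), both enzymes of serine synthesis. In E16.5 basal cells no gene of the 4 lists passed edgeR. The medians there were 0.75 over 11 other glycolysis genes, 1.05 over 20 HIF and hypoxia genes, -0.73 over 9 genes of pyruvate entry and -0.23 over 10 pentose phosphate and serine genes, against -0.12 for all genes.

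The QPC cKO comparison asks the same question of a direct lesion of the respiratory chain. With 1 library per group there is no replicate check and no test, and the intervals are exact 95% intervals that cover counting error only. Uqcrq stood at 103 CPM in the basal gate of the control and 45.7 in QPC cKO, at 144 and 27.8 in suprabasal cells and at 69.4 and 122 in fibroblasts. Without the collagen-positive cells the basal values were 132 and 38.6.

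In QPC cKO suprabasal cells every member stood below the control. Slc16a3 went from 31.3 CPM in the control to 9.10, a ratio of 0.291 (interval 0.170 to 0.469). Slc2a1 went from 520 to 286 (0.549, interval 0.502 to 0.601) and Pgk1 from 495 to 279 (0.564, 0.514 to 0.618). The intervals of Slc2a1 and Pgk1 overlapped, and that of Slc16a3 lay below both.

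Among the other enzymes the ratios were close together. Ldha measured 1109 and 659 CPM (ratio 0.595, 0.560 to 0.631), Pkm 921 and 555 (0.602, 0.564 to 0.643), Aldoa 859 and 571 (0.665, 0.623 to 0.709) and Eno1 483 and 330 (0.684, 0.627 to 0.744). Pfkp, at 27.7 and 19.2, and Hk2, at 68.4 and 53.6, had ratios of 0.692 and 0.784 with intervals below 1. Pdk1, at 58.6 and 49.8, was the exception, its interval of 0.673 to 1.07 including 1. In all, 6 of 10 were at least 1.5-fold lower with intervals apart, as were 4.65% of 5911 genes, and 0 were higher, where 1.91% were. Without its few collagen-positive cells the gate gave 5, where 281 of 5838 genes were lower. Over all alternatives it gave 5 to 7, and the last section gives the genes lower in the same settings. The QPC cKO gate held 72 cells and the control 190, and its hair follicle markers summed to 4628 and 2756 CPM.

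The basal gate gave a different answer with and without its collagen-positive cells. With all cells only Slc16a3 was at least 1.5-fold lower, at 23.6 in the control and 9.46 in QPC cKO (ratio 0.401, 0.349 to 0.459), where 20.5% of 12850 genes were, and 0 were higher, where 6.61% were. Hk2, Pdk1 and Eno1 then had ratios above 1, at 1.3, 1.23 and 1.01. The fibroblast markers of this gate summed to 30920 CPM in the control library against 5418 for QPC cKO.

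Without the collagen-positive cells 6 members were at least 1.5-fold lower in QPC cKO basal cells, where 10.6% of 11524 genes were, and 0 were higher, where 2.4% were. Slc16a3 measured 28.5 and 6.63 CPM (ratio 0.233), Ldha 721 and 390 (0.541), and Pkm 782 and 449 (0.574). Pgk1 measured 390 and 225 (0.578), Slc2a1 421 and 251 (0.595), and Aldoa 564 and 353 (0.625). With all suprabasal cells these 6 were the ones lower by this rule there, and without collagen-positive cells Aldoa, at a suprabasal ratio of 0.668, no longer passed. Only the interval of Hk2 included 1, at 36.3 and 35.9 (ratio 0.989), and the median member had a log2 ratio of -0.71. With cells under 5% mitochondrial UMIs alone, collagen-positive ones included, 7 members had a ratio above 1 in basal cells, in place of the 3 above. Hk2 and Pdk1 were called higher (log2 ratios 0.69 and 0.62), where 12.5% of 12205 genes were, and Slc16a3 was called lower (-0.79), where 20.3% were.

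**Figure D5:**
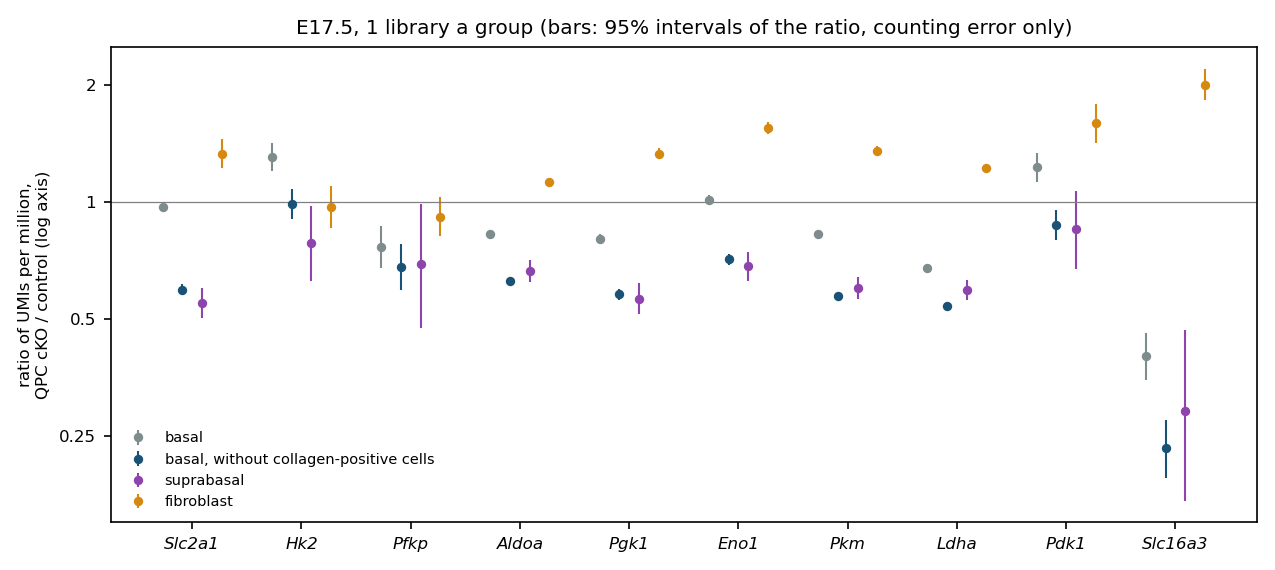
Ratio of CPM in QPC cKO over control at E17.5 (log axis) for each gene in each gate, with exact 95% intervals for counting error. Suprabasal points run from 0.291 to 0.850 and fibroblast points from 0.915 to 2.0, and the basal ratios are lower when collagen-positive cells are left out.

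QPC cKO fibroblasts, which Krt14-Cre does not target, stood above the control for most members. Slc16a3 was 15.9 and 31.9 CPM (ratio 2.0, 1.82 to 2.20), Pdk1 11.3 and 17.9 (1.59, 1.42 to 1.79) and Eno1 117 and 182 (1.55, 1.5 to 1.61). These 3 were at least 1.5-fold higher, where 7.53% of 12287 genes were, and 0 were lower, where 4.93% were. With TMM scaling Eno1 no longer passed, and the genes called went from 925 higher and 606 lower to 735 and 720. Slc2a1, Aldoa, Pgk1, Pkm and Ldha also had intervals above 1, with ratios of 1.33, 1.12, 1.33, 1.35 and 1.23, while Hk2 and Pfkp had intervals that included 1. For 7 members the interval lay below 1 in suprabasal cells and above 1 in fibroblasts of the same pair. How many of all genes did so was not counted. The median member had a log2 ratio of -0.66 in suprabasal cells and 0.41 in fibroblasts, against -0.04 and 0.11 for all genes.

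Hypoxia genes were lower beside the members in QPC cKO suprabasal cells. In suprabasal cells 11 of 19 HIF and hypoxia genes were at least 1.5-fold lower and 0 higher, where 4.65% and 1.91% of all genes were, with ratios of 0.36 for Bnip3, 0.37 for Egln3 and 0.41 for Ankrd37. Of 11 other glycolysis genes 2 were lower, Aldoc at 0.37 and Pfkfb3 at 0.46, and of 7 genes of pyruvate entry 0 passed the rule either way. Psph, the last enzyme of serine synthesis, stood at 2.01 and Taldo1 at 0.66. In basal cells with all cells 7 of 22 HIF genes were lower and 0 higher, and of 16 other glycolysis genes 6 were lower and 1, Ldhb, was higher, beside the 20.5% and 6.61% of all genes. Without collagen-positive cells 9 of 21 HIF genes and 6 of 15 other glycolysis genes were lower and 0 were higher, beside 10.6% and 2.4%, and Psph stood at 3.23 with and 2.33 without these cells. In fibroblasts 2 of 22 HIF genes were higher, Ankrd37 at 2.45 and Bnip3 at 1.53, near the share of all genes (7.53%), and the list's median log2 ratio was 0.01. Of 15 other glycolysis genes 3 were higher, Pfkfb3 (1.67), Pfkl (1.60) and Tpi1 (1.5), with a median of 0.13 against 0.11 for all genes.

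The MOF cKO and QPC cKO values stand at different stages and against different controls, so that no test of the difference between them was made. In suprabasal cells 7 members lay above both controls in E16.5 MOF cKO, as did 12.2% of all genes, while Slc2a1, Pgk1 and Pdk1 overlapped them. These MOF cKO gates held 9 and 13 cells, of which 8 and 8 had under 1% mitochondrial UMIs, and their keratin make-up differed from that of the controls. All 10 members lay below the control in E17.5 QPC cKO suprabasal cells, with a median log2 ratio of -0.66, against -0.04 for all genes. In basal cells Pdk1 lay below both controls in E16.5 MOF cKO, and with all cells it lay above the control in QPC cKO, as did Hk2 and Eno1. Without collagen-positive cells these 3 lay below the control in QPC cKO, Pdk1 at 33.6 against 38.7, Eno1 at 241 against 338 and Hk2 at 35.9 against 36.3. Slc16a3, Eno1 and Ldha, picked after their values were seen, show the suprabasal levels. Slc16a3 had 51.9 and 65.1 CPM in E16.5 MOF cKO against 4.02 and 15.7 in controls (20.6 in place of 65.1 without collagen-positive cells), and 9.10 in E17.5 QPC cKO against 31.3. Eno1 had 1620 and 1226 against 507 and 556, and 330 against 483. Ldha had 2025 and 1764 against 1037 and 1152, and 659 against 1109. In fibroblasts the order turned for Ldha, with 455 and 459 against 607 and 618 in MOF cKO and 559 against 457 in QPC cKO. Pgk1 could not be set across stages, since the E16.5 libraries had 19.6 to 151 CPM over all gates where the other stages had 143 to 583, and the 2 E16.5 controls differed from each other in every gate (76.6 and 28.5 in basal cells).

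Over the 30 library-by-gate sums, centred within stage, the genes outside the list whose log2 levels most resembled the members' mean were Fam162a (Pearson r = 0.958), 2610528A11Rik (0.948), Pgam1 (0.944), Fabp5 (0.942), Aldh3b2 (0.942), Tuba4a (0.941), Ywhaz (0.940), Rab11a (0.938), Pfkl (0.938) and Urah (0.935), of 5670 candidates. Pgam1 and Pfkl are glycolytic enzymes and Fabp5 is a fatty acid binding protein of the epidermis. Among the members, Eno1, Pkm and Aldoa were closest to the mean of the other 9 (r = 0.967, 0.961 and 0.960), and Slc16a3 was farthest at 0.112. These sums share libraries and gates, so the correlations are descriptions.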

How the data were processed

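The deposited values are UMI counts per gene and cell barcode, made by the authors with Cell Ranger 1.3.1 and 6.1.2 on mm10 per the submitters' processing notes, filtered to called cells. Symbols listed more than once were summed. Kept cells had more than 1000 and fewer than 6000 genes and under 10% mitochondrial UMIs, and were gated by keratin and collagen UMIs. UMIs were summed per library and gate, and libraries with fewer than 10 cells in a gate were left out of tests. edgeR 4.0.16 (R 4.3.3, filterByExpr, TMM, quasi-likelihood test with its default fit, Benjamini-Hochberg over all genes) called changes at adjusted p under 0.05, with embryo as a block where gates were compared, and DESeq2 1.42.0 was an alternative. Labels give separate samples per group, and p-values measure the spread between them. At E17.5 called means at least 1.5-fold with exact 95% Poisson intervals apart, among genes of at least 100 UMIs. Log2 levels used a pseudocount of 1. All 10 members were described, and of each other list up to 3 called genes with the largest change. Members and lists were chosen with earlier results of these data known. Tested on simulated data, the fits recovered changes in fibroblasts, in E15.5 suprabasal cells and between gates but none in the other keratinocyte fits, where 0 calls do not show that levels were alike.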

Additional observations from a re-analysis of the deposited data

Results flagged for a closer look

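The MOF cKO effect differed between basal cells and fibroblasts by test for Eno1 (log2 1.07) and Aldoa (0.78). Each was called in 5 of 17 alternatives, and both calls were lost without any 1 of 7 of the 8 libraries and without cells under 1% mitochondrial UMIs. For 3 genes every E16.5 MOF cKO keratinocyte value lay above both controls and every fibroblast value below, a difference that was not tested gene by gene at that stage. Of genes of at least 2 CPM, 10.5% lay above in basal cells, 12.2% above in suprabasal cells and 37.4% below in fibroblasts. How many of all genes were opposite in this way was not counted. The ratios of mean CPM in basal cells, suprabasal cells and fibroblasts were 1.99, 2.68 and 0.851 for Eno1, 1.46, 1.96 and 0.696 for Pkm, and 1.40, 1.73 and 0.746 for Ldha.

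In the E17.5 pair, 7 members were lower in QPC cKO suprabasal cells and higher in QPC cKO fibroblasts, with 1 library per group and no test of the difference. How many of all genes were opposite in this way was not counted. In fibroblasts the median log2 ratio was 0.41 for members and 0.11 for all genes. Suprabasal and fibroblast ratios were 0.549 and 1.33 for Slc2a1, 0.665 and 1.12 for Aldoa, 0.564 and 1.33 for Pgk1, 0.684 and 1.55 for Eno1, 0.602 and 1.35 for Pkm, 0.595 and 1.23 for Ldha, and 0.291 and 2.0 for Slc16a3.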

How the results depend on the processing

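The number of members called moved by more than 1.5 times, or away from 0, in 34 of 254 alternatives of the edgeR comparisons and in 3 of 15 of the E17.5 comparison. No member called as reported turned its direction. The edgeR legacy fit, the 9-cell suprabasal library and the cells under 1% mitochondrial UMIs were added as alternatives after seeing the data. In E16.5 basal cells, where 0 were called, DESeq2 called 3, the legacy fit 1, gates per 10000 UMIs 6 and leaving out collagen-positive cells 1. In E16.5 suprabasal cells the 9-cell library gave 1. With both stages, DESeq2 called 3 in basal cells and 1 in fibroblasts, and gates per 10000 UMIs 1 in basal cells. For the difference between stages, DESeq2 called 1 in basal cells and 1 in fibroblasts, and gates per 10000 UMIs 2 in basal cells. For basal minus fibroblast cells, where 2 were called, library size alone, no filter on low counts, the legacy fit, the 9-cell library and leaving out cells under 1% mitochondrial UMIs gave 0, DESeq2 5, and gates per 10000 UMIs, no collagen-positive cells and under 5% mitochondrial UMIs 4 each. DESeq2 called 3 for suprabasal minus fibroblast cells. Leaving out 1 library at a time gave 0 to 2 members in basal cells over both stages, 0 to 6 for basal minus fibroblast cells and 0 to 4 for suprabasal minus fibroblast cells. At E15.5 the counts in basal and suprabasal cells moved too, in fits with 1 embryo in a group. The counts of these alternatives stand here without the share of all genes called in the same fits. They show how far the calls moved and are not a result about the members. In QPC cKO basal cells 1 member was called with all cells, and it was lower, as were 2637 of 12850 genes. The count was 6, all lower, with gates per 10000 UMIs (638 of 10905 genes lower). It was also 6, all lower, without collagen-positive cells (1221 of 11524). With under 5% mitochondrial UMIs it was 3, 2 higher and 1 lower, where 1527 and 2481 of 12205 genes were. In that setting 7 of 10 ratios exceeded 1 and the median log2 ratio was 0.03 in place of -0.28. Pdk1, not called with all cells, was called higher there (log2 ratio 0.62) but had an interval below 1 without collagen-positive cells. In QPC cKO suprabasal cells, 6 with all cells, the members called were all lower in each alternative. The count was 5 with TMM scaling (254 of 5911 genes lower) and 7 with gates per 10000 UMIs (238 of 5103). It was 5 without collagen-positive cells (281 of 5838) and 5 of 8 tested with under 5% mitochondrial UMIs (254 of 4314). With no minimum of UMIs it was 6 (387 of 15813). With the replicate number as a block, 0 members were called in E16.5 basal cells and 0 in fibroblasts. The numbers did not pair the samples there (correlation of deviations -0.078 and -0.021). The block could not be fitted in E16.5 suprabasal cells, and no paired analysis was possible at E15.5 because the groups share no numbers. In the E16.5 MOF cKO keratinocytes a member had as few as 2 UMIs in a gate, and the part of depth in the lack of calls was not tested.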
